A study of Mus musculus with 12 samples.

Results

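The eicosanoid synthesis enzymes are described here in mouse dendritic cells with and without interleukin 2 (IL-2) and with and without curdlan. The set lists 8 genes by name: Ptgs1, Ptgs2, Ptges, Alox5, Alox5ap, Alox15, Lta4h and Ltc4s. A gene was followed through the probe set that the array annotation gives to it and to no other gene. In this way 7 of the 8 were measured, each by 1 probe set, among 19937 genes in all, and Ptgs1 was not analysed here. RNA came from bone marrow cultured with 200 ng/ml of the growth factor GM-CSF; after 7 days CD11c beads enriched the dendritic cells to a stated purity above 95%. It was read on 12 Affymetrix Mouse Gene 1.0 ST arrays. The 4 groups of 3 arrays were wild-type cells left untreated, wild-type cells given curdlan for 6 h, IL-2 knockout cells left untreated, and knockout cells given curdlan for 6 h. The sources used here give neither the curdlan dose nor the age of the mice. Curdlan is a beta-glucan that dendritic cells sense through the receptor Dectin-1. The strain label B6.129P2-Il2tm1Hor/J, a line with a disrupted Il2 gene, stands on all 12 arrays, the wild-type ones included, so genotype was read from the genotype label. The labels do not name separate animals for the replicates, so a p-value here reflects only how these arrays scatter, which may be technical.

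Eicosanoids are short-lived lipid mediators made from arachidonic acid once phospholipases have freed it from membranes. In the cyclooxygenase branch, Ptgs1 (constitutive) and Ptgs2 (inducible) make prostaglandin H2, which Ptges turns into prostaglandin E2, a mediator that acts on dendritic cell migration and cytokine output. In the lipoxygenase branch, Alox5 works with its membrane partner Alox5ap to make leukotriene A4, which Lta4h hydrolyses to leukotriene B4, a chemoattractant, and which Ltc4s joins to glutathione to give leukotriene C4. Alox15 oxygenates arachidonic and linoleic acid at other carbons, and its products include ligands of the nuclear receptor Pparg.

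Values are log2 signals as the authors deposited them, and a difference of 1 is a doubling of signal. The array medians ran from 6.59 to 6.64 and the arrays correlated with each other at 0.981 to 0.997. A value after ± beside a group mean is the SD of its 3 arrays, and beside a difference it is the SE of the fit. A probe set's brightness depends on its own sequence, so single genes are compared between arrays and not with each other. A probe set's place among all gene means is given only to say how near it lies to the dim end of the array. The summed level of 8 dendritic cell markers lay between 15.23 and 15.51 on the 12 arrays, and that of 6 macrophage markers between 14.52 and 14.80. Itgax, which encodes the CD11c used for enrichment, and the MHC class II genes were bright throughout, and so were the macrophage markers Cd68, C1qb and Adgre1. The dendritic lineage genes Flt3 and Zbtb46 had group means of 6.78 to 7.70 and of 7.55 to 8.29. These values do not separate a pure dendritic cell culture from one that also holds macrophages. With curdlan 3 of the 8 dendritic markers rose in wild-type and 4 in knockout cells, against 7.27% and 9.29% of all genes called higher. Flt3, Zbtb46, Ccr7 and Cd86 had higher means with curdlan in both genotypes. Itgax, H2-Ab1, H2-Aa and Cd74 had slightly lower means in both. Of the 6 macrophage markers 2, Mertk and Fcgr1, rose in both. The other 4, Adgre1, Cd68, C1qa and C1qb, had lower means with curdlan in both genotypes but were not called. The median difference of the macrophage list was -0.14 in wild-type and -0.10 in knockout cells. Between genotypes 0 of either list were called by limma. The part of cell make-up in the enzyme results was not tested. Il2 itself went from 5.37 to 5.56 in untreated wild-type cells to 6.74 to 7.80 with curdlan, while the 6 knockout arrays stayed between 5.63 and 6.04. Differences between groups were tested with limma, a linear model with moderated variances, in 1 fit over all genes. A gene was called when its p, adjusted by Benjamini-Hochberg over the 19937 genes, was at most 0.05.

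Curdlan raised the inducible cyclooxygenase Ptgs2 and the prostaglandin E synthase Ptges in both genotypes, lowered Lta4h in both, and left Ltc4s without a called change. Of the 7 measured members, 4 were called in wild-type cells and 4 in knockout cells, 2 higher and 2 lower in each. Over all genes 19.6% were called in wild-type cells (7.27% higher, 12.3% lower) and 22.5% in knockout cells (9.29% higher, 13.2% lower). Arrays did not overlap between treated and untreated cells for 3 of 7 members in each genotype, Ptgs2, Ptges and Lta4h, against 38% of all genes in wild-type and 40.3% in knockout cells. These 3 genes kept their calls in both genotypes under all 28 alternative settings and left-out arrays tried.

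Ptgs2 makes the prostaglandin precursor in stimulated cells and lies on chromosome 1 (GRCm38.p6, 150100031 to 150108234). Its untreated wild-type arrays read 7.60, 7.10 and 7.58 (7.43 ± 0.28, SD, n = 3), and the curdlan-treated ones read 10.78, 10.06 and 10.02 (10.29 ± 0.43). Untreated knockout arrays read 7.59, 7.05 and 7.01 (7.22 ± 0.33), and curdlan-treated knockout arrays read 10.73, 11.01 and 9.91 (10.55 ± 0.57). All 6 treated arrays lay above all 6 untreated arrays, and the genotypes overlapped within each treatment. The rise was 2.86 ± 0.29 (SE, adjusted p = 7.04e-05, limma) in wild-type cells, a 7.25-fold change. In knockout cells it was 3.33 ± 0.29 (adjusted p = 2.71e-05), a 10.1-fold change. In size these changes stood at the 99.9th and 99.96th percentile of all genes tested. The knockout rise exceeded the wild-type rise by 0.47, with a 95% interval from -0.41 to 1.36, so the data did not separate the genotypes.

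Ptges completes prostaglandin E2 downstream of Ptgs2 and lies on chromosome 2 (30889471 to 30931020). The untreated wild-type arrays gave 7.60, 7.48 and 7.43 (7.50 ± 0.09, SD, n = 3), and the treated ones gave 8.40, 8.13 and 8.07 (8.20 ± 0.18). Knockout arrays gave 7.78, 7.74 and 7.98 untreated (7.84 ± 0.13), then 8.95, 8.91 and 8.50 with curdlan (8.79 ± 0.25). No group overlapped with another: treated knockout was highest, then treated wild type, untreated knockout and untreated wild type. Curdlan raised Ptges by 0.70 ± 0.12 in wild-type cells (adjusted p = 0.00285, limma) and, in the knockout, by 0.95 ± 0.12 (adjusted p = 0.000546), or 1.62-fold and 1.93-fold. In the genotype comparisons the knockout stood higher by 0.33 untreated (95% interval 0.06 to 0.61, adjusted p = 0.314) and by 0.59 with curdlan (0.31 to 0.86, adjusted p = 0.0637). Neither was called in the fit to all 12 arrays. The curdlan-treated difference passed under several other settings, with adjusted p of 0.0455 without the dim genes, 0.0474 after median centring, 0.0475 with a trended robust prior and 0.00411 with array weights. It also passed without treated wild-type array 1 (0.0410) or treated knockout array 3 (0.0331). The same held without the wild-type arrays numbered 1 (0.0365) or the knockout arrays numbered 3 (0.0321). It stayed uncalled by limma in 14 of 18 leave-outs (adjusted p up to 0.354) and in 4 of 9 other settings (up to 0.199).

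**Figure D1:**
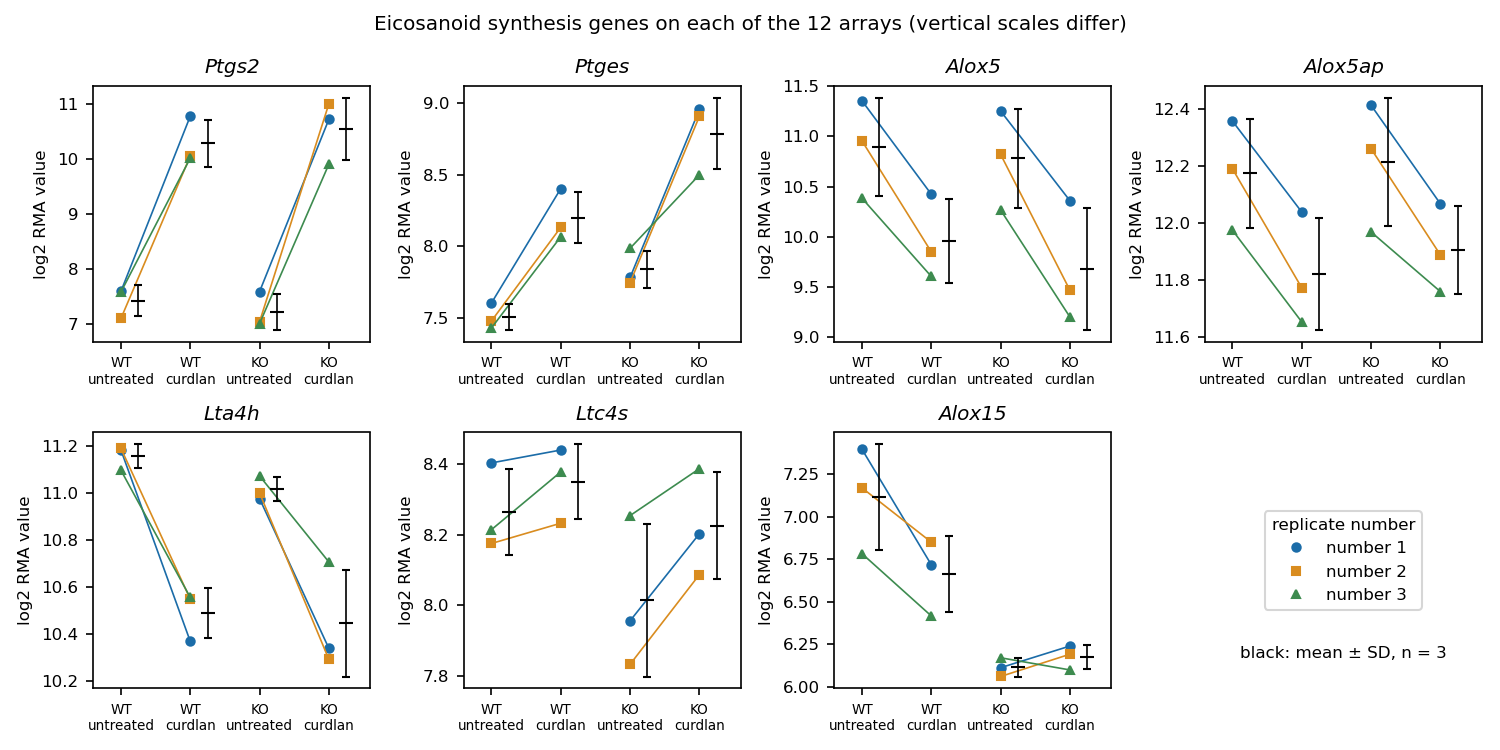
Log2 signal of the 7 measured enzymes on every array, 1 panel per gene, with the 4 groups on the x axis; points are single arrays, lines join arrays of 1 genotype with the same replicate number, black bars are group mean ± SD (n = 3), and vertical scales differ between panels. Ptgs2 is high on all 6 treated arrays, the 4 Ptges groups form separate steps, and Alox15 is higher on all wild-type arrays than on any knockout array.

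The promoters of Ptgs2 and Ptges are shown because these were the members that rose together. They are the RefSeq sequences of GRCm38.p6, from 250 bases before the annotated start to 50 after it, 5' to 3' on the gene's strand. Capitals mark the motif matches. Ptgs2 is at chr1:150099781-150100080 on the plus strand and Ptges at chr2:30903248-30903547 on the minus strand. The windows of Ptges and Ptgs1 lie inside the gene spans, at a start other than the outermost end.
Ptgs2: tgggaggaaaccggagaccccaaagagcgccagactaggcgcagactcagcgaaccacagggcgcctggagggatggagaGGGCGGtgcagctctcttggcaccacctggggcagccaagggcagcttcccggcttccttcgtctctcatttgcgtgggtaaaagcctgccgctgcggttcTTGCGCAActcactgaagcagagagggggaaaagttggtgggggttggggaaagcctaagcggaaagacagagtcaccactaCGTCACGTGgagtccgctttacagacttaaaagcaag
Ptges: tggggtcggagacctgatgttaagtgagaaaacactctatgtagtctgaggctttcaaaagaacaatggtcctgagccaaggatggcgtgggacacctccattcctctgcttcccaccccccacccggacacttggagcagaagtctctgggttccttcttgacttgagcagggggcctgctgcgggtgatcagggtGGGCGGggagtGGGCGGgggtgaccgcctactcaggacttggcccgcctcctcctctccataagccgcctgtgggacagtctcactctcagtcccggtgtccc

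A set of 7 motifs was searched on both strands: the NF-kB consensus, the core of the cyclic AMP response element (CRE core, CGTCA), AP-1 (TGANTCA), C/EBP (TTGCGNAA), the E-box CACGTG, the TATA box TATAAA and the GC box GGGCGG. Counting the annotated start as 1, Ptgs2 had a C/EBP match from -69 to -62, a CRE core from 14 to 18, an E-box from 17 to 22 that overlaps it, and a GC box from -170 to -165. Ptges had GC boxes from -53 to -48 and from -42 to -37 and none of the other motifs. The C/EBP letters occur in 0.798% of the 32851 promoters of this length, the E-box in 7.15%, the CRE core in 20.8% and the GC box in 35.7%. The GC box was the single motif present in both. Of the other enzymes, Alox5 had a GC box from -35 to -30, and the windows of Lta4h, Ltc4s and Ptgs1 held none of these letters. NF-kB letters occur in 8.46% of promoters, AP-1 in 7.81% and the TATA box in 13.6%, and none stood in the 6 windows examined. A match is a description of letters, not of bound protein. Alox5ap and Alox15 were not searched.

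The entry enzymes of the leukotriene branch had lower values with curdlan in every same-numbered pair of arrays. Alox5 lies on chromosome 6 (116410071 to 116461178). Wild-type arrays read 11.36, 10.96 and 10.38 untreated (10.90 ± 0.49), then 10.42, 9.85 and 9.60 with curdlan (9.96 ± 0.42). Knockout arrays read 11.25, 10.82 and 10.27 untreated (10.78 ± 0.49) and 10.36, 9.47 and 9.20 after curdlan (9.68 ± 0.61). The treated and untreated arrays overlapped in both genotypes, and in all 4 groups array 1 was highest and array 3 lowest. The difference was -0.94 ± 0.35 (SE) in wild-type cells, which was not called (adjusted p = 0.0831, limma). In knockout cells Alox5 fell by 1.11 ± 0.35 (adjusted p = 0.0409).

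The replicate numbers bear on these genes. After removal of group means, untreated and treated arrays with the same number correlated across genes at 0.37 to 0.45 in wild-type cells. In knockout cells they correlated at 0.49 to 0.60. The labels do not say that the numbers mark a shared culture, and what the numbers mark was not tested. Same-numbered arrays of the same genotype were treated as pairs, and each pair is called a culture here. Within pairs, Alox5 changed by -0.93, -1.11 and -0.78 in wild-type cultures and by -0.89, -1.35 and -1.07 in knockout cultures. With culture as a fixed block, Alox5 fell in wild-type cells too, at adjusted p = 0.000200 (0.0220 with culture as a random block). The knockout call of Alox5 without the block was lost in 10 of 18 leave-outs, with adjusted p from 0.0543 to 0.175. It was also lost with only the arrays compared (0.0661), after quantile normalisation (0.0542), with a trended robust prior (0.0730) and with array weights (0.0747). The arrays or cultures concerned were number 2 of the untreated and of the treated wild-type arrays, numbers 1 and 2 of the untreated and 2 and 3 of the treated knockout arrays, wild-type culture 2 and each knockout culture.

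Alox5ap presents arachidonic acid to Alox5 and lies on chromosome 5 (149265004 to 149288153). It read 12.36, 12.19 and 11.98 in untreated wild-type cells (12.17 ± 0.19, SD, n = 3) and 12.04, 11.77 and 11.65 with curdlan (11.82 ± 0.20). Knockout cells gave 12.41, 12.26 and 11.97 untreated (12.21 ± 0.23), then 12.07, 11.89 and 11.76 with curdlan (11.91 ± 0.15). The order of arrays by number was that of Alox5 in all 4 groups. The differences of -0.35 ± 0.14 (adjusted p = 0.100, limma) and -0.31 ± 0.14 (adjusted p = 0.124) were not called without the block. All 6 pairs went down, by -0.42 to -0.21, and with the fixed culture block the adjusted p was 0.00205 in wild-type and 0.00429 in knockout cells (0.0303 and 0.0449 with the random block).

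Split by source, the spread of Alox5 over the 12 arrays lay 61.4% between the groups, 36.7% between the replicate numbers and 1.90% in the rest. For Alox5ap the shares were 53.1%, 45.0% and 1.91%. Over all genes the median share of the numbers was 11.9%, which placed Alox5 at the 89.8th and Alox5ap at the 94.4th percentile. Ptgs2, Ptges, Lta4h and Alox15 had 2.03% to 6.12% of their spread between numbers. Ltc4s had 29.5% there and 21.7% in the rest.

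**Figure D2:**
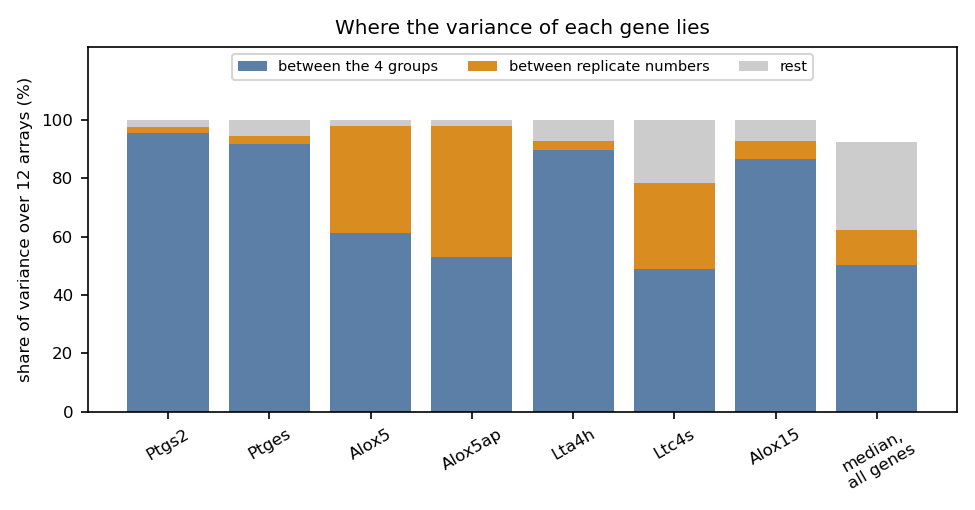
Share of each enzyme's sum of squares over 12 arrays (percent, y axis) that lies between the 4 groups, between the 3 replicate numbers, and in the rest. The rightmost bar gives the median of each share over all genes, taken separately, so it does not add up to 100. The number shares of Alox5 (36.7%) and Alox5ap (45.0%) stand out from those of Ptgs2 (2.03%) and Ptges (2.52%).

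The next step of the branch divides between Lta4h and Ltc4s. Lta4h, which makes leukotriene B4, lies on chromosome 10 (93453396 to 93484896). It read 11.18, 11.19 and 11.10 in untreated wild-type cells (11.16 ± 0.05, SD, n = 3) and 10.37, 10.55 and 10.55 with curdlan (10.49 ± 0.11). Knockout cells gave 10.97, 11.00 and 11.07 untreated (11.01 ± 0.05), then 10.34, 10.29 and 10.71 with curdlan (10.44 ± 0.23). All treated arrays lay below all untreated ones. Lta4h fell by 0.67 ± 0.10 (adjusted p = 0.000890, limma) in wild-type cells and by 0.57 ± 0.10 in knockout cells (adjusted p = 0.00263).

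Ltc4s, the cysteinyl leukotriene synthase, lies on chromosome 11 (50236461 to 50238532). Wild-type arrays read 8.40, 8.17 and 8.21 untreated (8.26 ± 0.12), then 8.44, 8.23 and 8.38 with curdlan (8.35 ± 0.11). Knockout arrays read 7.96, 7.83 and 8.25 untreated (8.01 ± 0.22), then 8.20, 8.09 and 8.39 with curdlan (8.23 ± 0.15). Treated and untreated arrays overlapped in both genotypes. The differences were 0.09 (adjusted p = 0.642, limma) and 0.21 (adjusted p = 0.189). All 6 pairs went up, by 0.04 to 0.25, and with the fixed culture block Ltc4s passed in knockout cells (adjusted p = 0.0199). In the fit without the block, Lta4h was called lower in both genotypes, Alox5 in knockout cells only and Alox5ap in neither. With the fixed culture block, which rests on correlations in these same data, Alox5 and Alox5ap were called lower in both genotypes. Ltc4s was not called lower in either fit. The background under the fixed culture block was 26.4% of genes called in wild-type cells and 32.3% in knockout cells.

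Alox15 was the one member called between the genotypes. It lies on chromosome 11 (70344147 to 70390538). Untreated wild-type cells read 7.39, 7.17 and 6.78 (7.12 ± 0.31, SD, n = 3), and untreated knockout cells read 6.11, 6.06 and 6.17 (6.11 ± 0.06). With curdlan, wild-type cells read 6.72, 6.85 and 6.42 (6.66 ± 0.22) and knockout cells 6.24, 6.19 and 6.10 (6.18 ± 0.07). All 6 wild-type arrays lay above all 6 knockout arrays. Untreated knockout cells were lower by a log2 difference of -1.0 ± 0.14 (95% interval -1.31 to -0.70, adjusted p = 0.00888, limma), at the 99.4th percentile of all genes in size. Over all genes 1.42% were called in this comparison, 1.19% lower and 0.231% higher in the knockout. With curdlan the difference was -0.48 (-0.79 to -0.18, adjusted p = 0.167), and 0.622% of all genes were called.

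The Alox15 values sit near or below the middle of the gene means. Its own mean lies at the 44.4th percentile, above the lower quartile of 5.38. All knockout arrays, all treated wild-type arrays and untreated wild-type array 3 read below the median gene mean of 6.96. That is a range in which array background compresses differences. With the replicate number as a block, 699 genes were called between untreated genotypes in place of 283, and Alox15 kept its call (adjusted p = 0.00283). It was lost without the first (adjusted p = 0.0580) or second (0.0659) knockout culture and when only the 6 arrays compared were fitted (0.0513). With curdlan Alox15 fell by 0.45 ± 0.14 in wild-type cells (adjusted p = 0.0403), with pairs at -0.68, -0.32 and -0.37, while knockout pairs stood at 0.13, 0.13 and -0.07. That call was lost in 14 of 18 leave-outs, with adjusted p from 0.0507 to 0.208. It was also lost with only the arrays compared (0.114) and with array weights (0.145), which moved the difference to -0.27. Among the leave-outs it was kept without untreated wild-type array 3, treated wild-type array 2, treated knockout array 3 or wild-type culture 3. The interaction, knockout effect minus wild-type effect, was 0.52 (95% interval 0.08 to 0.95). Its unadjusted p was under 0.05, its adjusted p was 1.00 and no gene of the array was called there.

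Markers of other cells known to carry Alox15 were read beside it. The summed level of 5 eosinophil markers ran from 9.47 to 10.02 in untreated wild-type and from 9.05 to 9.75 in untreated knockout cells, and 4 of the 5 had means below the median gene. The summed level of 10 mast cell and basophil markers ran from 9.92 to 10.31 in untreated wild-type and from 9.47 to 9.90 in untreated knockout cells, so these groups did not overlap, and 8 of the 10 were below the median gene. Of the eosinophil list Siglecf was the marker above the median gene, and knockout minus wild type was -0.55 (adjusted p = 0.541, limma). The other 4 ranged from -0.14 to 0.12. Of the mast cell list Kit (-0.60, adjusted p = 0.195) and Gata2 (-0.67, adjusted p = 0.452) were above it. Among the dim ones Cpa3 differed by -0.46 (adjusted p = 0.0570), and the granule and receptor genes Mcpt8, Fcer1a, Ms4a2, Tpsb2, Cma1, Mcpt4 and Prss34 ranged from -0.00 to 0.13. None of the 15 genes of these lists was called between untreated genotypes. For the 6 macrophage markers the median of knockout minus wild type in untreated cells was 0.13, against 0.01 over all genes, and 0 were called. The part of these cells in the Alox15 difference was not tested. In RNA from a whole culture, fewer cells of a type and less RNA per cell cannot be told apart.

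Apart from Alox15 in untreated cells, no enzyme was called between the genotypes, which does not show equal levels. In untreated cells the arrays of the genotypes did not overlap for 3 of 7 members, Ptges (knockout higher), Alox15 and Lta4h (knockout lower), against 15.4% of all genes. In curdlan-treated cells they did not overlap for 2 of 7, Ptges and Alox15, against 14.6% of all genes. Knockout minus wild type was -0.21 (95% interval -0.84 to 0.42) untreated and 0.26 (-0.37 to 0.89) with curdlan for Ptgs2. For Lta4h it was -0.14 and -0.05, for Ltc4s -0.25 and -0.12, for Alox5 -0.12 and -0.28, and for Alox5ap 0.04 and 0.08. None of these was called, with adjusted p from 0.465 to 0.984. The interaction was called for 0 of 7 members and 0% of all genes in the limma fit, and 1 member and 552 genes had an unadjusted p under 0.05.

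**Figure D3:**
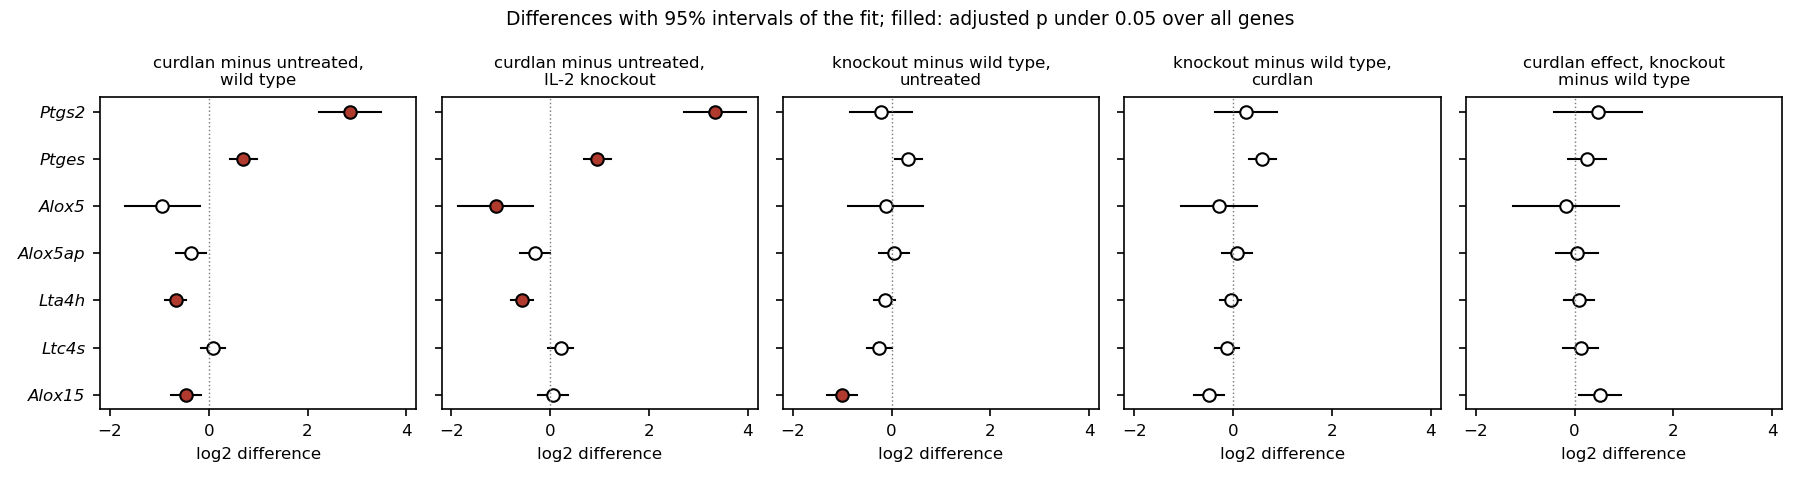
Log2 differences of the 7 enzymes with 95% intervals from the limma fit (x axis) in 5 panels: the curdlan change in each genotype, the knockout minus wild-type difference in each treatment, and the interaction; filled points passed the adjusted p of 0.05. Ptgs2 and Ptges lie to the right in both genotypes, Lta4h to the left, and Alox15 is the single filled point among the genotype differences.

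The curdlan response of other genes in the pathway was counted on a wider list. Of 58 listed genes outside the enzyme set, 53 were measured. In wild-type cells 3 rose and 9 fell, and in knockout cells 6 rose and 9 fell. Over all genes 7.27% were called higher and 12.3% lower in wild-type cells, and 9.29% and 13.2% in knockout cells. The counts without the block for each smaller list below stand beside these same shares, and no list was tested as a set. The median difference of the 53 genes was -0.02 in wild-type and 0.02 in knockout cells, against 0.02 and 0.04 over all genes. With culture as a fixed block the counts were 3 up and 18 down in wild-type cells, against 9.95% and 16.4% of all genes, and 9 up and 17 down in knockout cells, against 14.4% and 17.9%.

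Among 11 genes that free or recapture arachidonic acid, 1 rose and 2 fell in wild-type cells and 3 rose and 3 fell in knockout cells. The phospholipase Pla2g4c rose by 0.46 ± 0.09 in wild-type cells (SE, adjusted p = 0.00460, limma) and by 0.55 ± 0.09 in knockout cells (adjusted p = 0.00219). Daglb, a diacylglycerol lipase whose product can be cleaved to arachidonic acid, fell by 0.82 ± 0.10 (adjusted p = 0.000282) and by 0.77 ± 0.10 (adjusted p = 0.000544). The calcium-independent phospholipase Pla2g6 fell by 0.39 (adjusted p = 0.0342) and by 0.36 (adjusted p = 0.0412). Lpcat3, which returns polyunsaturated fatty acids to phospholipids, fell by 0.29 in knockout cells (adjusted p = 0.00883) and differed by -0.20 in wild-type cells (adjusted p = 0.0506). Pla2g4a, the main cytosolic phospholipase, differed by -0.01 and 0.06 and was not called.

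The terminal prostanoid synthases other than Ptges did not rise with it in wild-type cells. Of 7 measured, 2 fell in wild-type cells, and 1 rose and 1 fell in knockout cells. Thromboxane synthase, Tbxas1, fell by 0.40 ± 0.09 (adjusted p = 0.00825, limma) and by 0.36 ± 0.09 (adjusted p = 0.0146). Cbr1, a carbonyl reductase that acts on prostaglandin E2, fell by 0.27 in wild-type cells (adjusted p = 0.0450). Ptgds, a prostaglandin D synthase, rose by 0.27 in knockout cells (adjusted p = 0.0429). Hpgds, the haematopoietic prostaglandin D synthase, differed between replicate numbers as well as treatments. Its untreated wild-type arrays read 8.23, 7.68 and 7.76 and the treated ones 7.33, 7.00 and 7.32, with knockout arrays at 8.65, 7.77 and 7.75 untreated and 7.78, 7.10 and 6.95 treated. It differed by -0.68 (adjusted p = 0.0958) and -0.78 (adjusted p = 0.0513), and fell with the fixed culture block (0.000652 and 0.000409).

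Of 9 further lipoxygenase and leukotriene synthase genes, 0 were called in wild-type cells by limma and 1 fell in knockout cells. That gene was the glutathione transferase Mgst3, at -0.45 (adjusted p = 0.0248). Among 11 genes of inactivation and transport, 2 fell in wild-type cells and 1 in knockout cells. The prostaglandin reductase Ptgr2 fell by 0.51 ± 0.09 (adjusted p = 0.00252, limma) and by 0.55 ± 0.09 (adjusted p = 0.00192). Abcc4, which exports prostaglandin E2, fell by 0.36 in wild-type cells (adjusted p = 0.0118). Cyp4f18, which degrades leukotriene B4, differed by -0.64 (adjusted p = 0.0836) in wild-type and by -0.40 (adjusted p = 0.231) in knockout cells, and fell with the fixed culture block (0.000234 and 0.00287).

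With the fixed culture block, 9 further genes of the wider list fell in wild-type cells. They were Hpgds, Cyp4f18, Mgst1 (adjusted p = 0.00164, limma), Mgst3 (0.00462), Lpcat3 (0.0174), Cotl1 (0.0219), Ptgis (0.0265), Ggt5 (0.0397) and Ptges2 (0.0398). In knockout cells 8 further genes fell, Hpgds, Cyp4f18, Mgst1 (0.00315), Cotl1 (0.00477), Ptges3 (0.0415), Dpep2 (0.0447), Cbr1 (0.0485) and Abcc4 (0.0485). A further 3 rose there, Mgll (0.00987), Dpep1 (0.0296) and the thromboxane receptor Tbxa2r (0.0347). Mgst1 is a microsomal glutathione transferase and Cotl1 is a binding partner of Alox5. With Mgst3 they made 3 of the 9 lipoxygenase and leukotriene synthase genes lower in both genotypes under the block. Over all genes 16.4% were called lower in wild-type and 17.9% in knockout cells under it, and the share lower in both was not counted.

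**Figure D4:**
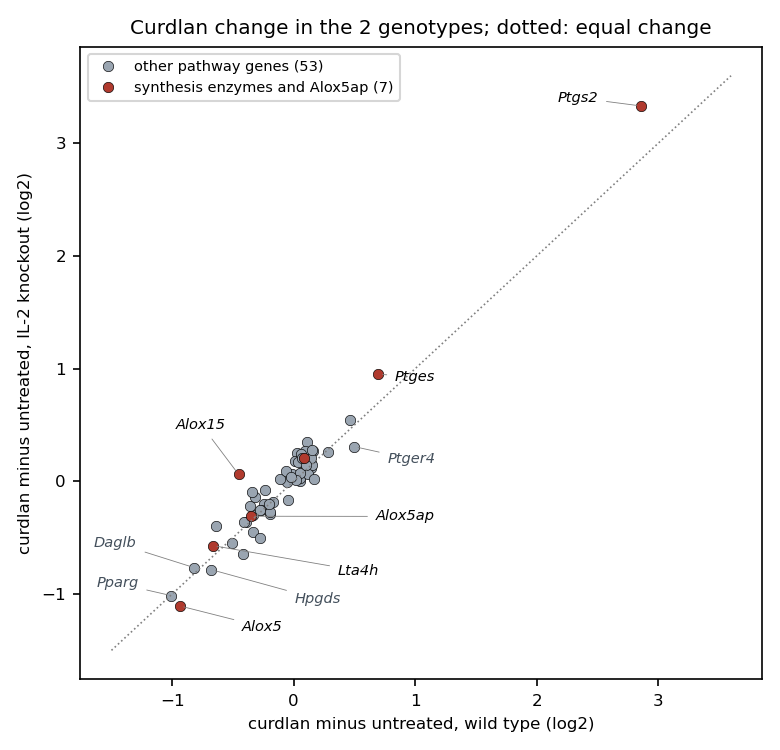
Curdlan change in wild-type cells (x axis, log2) against that in knockout cells (y axis, log2) for the 7 enzymes (red) and 53 other pathway genes (grey); the dotted line marks equal change. Ptgs2 lies far from the rest at 2.86 and 3.33, and all other pathway genes except Pparg lie within 1 log2 unit of no change; the axes come from separate groups of arrays.

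Receptors for the products were called in both directions. Of 15 measured, 2 rose and 3 fell in wild-type cells, and 2 rose and 3 fell in knockout cells. The shares of all genes were 7.27% higher and 12.3% lower in wild-type cells, and 9.29% higher and 13.2% lower in knockout cells. The prostaglandin E2 receptors went in opposite directions. Ptger4 rose from 10.09, 10.34 and 10.35 to 10.69, 10.84 and 10.74 in wild-type cells (by 0.50, adjusted p = 0.00179, limma) and from 9.97, 9.95 and 10.15 to 10.35, 10.29 and 10.35 in knockout cells (by 0.31, adjusted p = 0.0208). Ptger2 fell by 0.41 (adjusted p = 0.0284) and by 0.64 (adjusted p = 0.00359). With curdlan, Ptger4 was lower in knockout than in wild-type cells by -0.43 (adjusted p = 0.0426), a call lost in 14 of 18 leave-outs with adjusted p up to 0.264 and in 3 of 9 other settings with adjusted p up to 0.0781.

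Among leukotriene receptors, Ltb4r1, for leukotriene B4, fell by 0.51 in knockout cells (adjusted p = 0.0264, limma) and differed by -0.28 in wild-type cells (adjusted p = 0.213). In wild-type cells Cysltr1 fell by 0.34 (adjusted p = 0.00330), and the knockout difference was -0.10 (adjusted p = 0.276). Cysltr2 read 5.77, 5.74 and 5.85 in untreated wild-type and 6.28, 6.38 and 6.39 in untreated knockout cells, and 5.95, 6.26 and 6.01 against 6.58, 6.62 and 6.63 with curdlan. The knockout was higher by 0.56 untreated (adjusted p = 0.00800) and by 0.54 with curdlan (adjusted p = 0.0141), on a dim probe set. The first call was lost without the second knockout culture (0.0584). The second was lost without treated wild-type array 3 (0.0520), treated knockout array 2 (0.0553) or 3 (0.0528), wild-type culture 3 (0.0873), or knockout culture 2 (0.0934) or 3 (0.0594). Pparg, the nuclear receptor for Alox15 products, read 10.94, 10.69 and 10.68 in untreated wild-type and 9.80, 9.77 and 9.71 in treated cells, a fall of 1.01 (adjusted p = 0.00210). In knockout cells it went from 10.86, 10.39 and 10.81 to 9.74, 9.26 and 10.01, again a fall of 1.01 (adjusted p = 0.00234).

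Pla2g4c, Daglb, Ptgr2 and Pparg kept their curdlan calls in both genotypes under every alternative that could be run. So did Ptger4 and Cysltr1 in wild-type cells and Ptger2 in knockout cells. Pla2g4c (group means 5.42 to 6.12) and Ptger2 (5.93 to 6.57) lay below the median gene mean of 6.96. The dim-gene filter removed both, so it gave them no test. Other calls were lost in some leave-outs. Without culture 1 of the same genotype the adjusted p was 0.212 and 0.247 for Pla2g6, 0.323 for Cbr1, 0.230 for Ptgds, 0.114 for Ptger2 in wild-type cells, 0.138 for Mgst3, 0.174 for Ptger4 in knockout cells and 0.214 for Ltb4r1. Pla2g6 in knockout cells, Cbr1 and Ptgds each lost the call in 13 of 18 leave-outs. They also lost it with all arrays kept, Ptgds in 5 of 9 other settings (adjusted p up to 0.0824), Cbr1 in 3 of 10 (up to 0.182) and Pla2g6 in knockout cells in 2 of 10 (up to 0.103). Quantile normalisation ended the calls of Pla2g6 in wild-type cells (0.0688), Mgst3 (0.117) and Ltb4r1 (0.0981), and fitting only the arrays compared ended that of Ptger2 in wild-type cells (0.0622). Tbxas1 lost its call without the first (0.0737) or second (0.0703) wild-type culture in wild-type cells. In knockout cells it lost it without untreated array 1 (0.0631), treated array 2 (0.0592) or culture 1 (0.114) of the knockout. Abcc4 did so without wild-type culture 1 or 2 (0.108 and 0.0782) and without untreated wild-type array 1 (0.0507), and Lpcat3 without the first knockout culture (0.0763).

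The genes whose arrays followed each enzyme most closely were ranked by Pearson's r over the 12 arrays among 18664 other genes, for members whose group means spanned more than 1 log2 unit. The nearest to Ptgs2 were Parp10 (r = 0.989), Dennd3 (0.986) and Parp3 (0.984). Nearest to Ptges were Slc25a37 (0.986), Mfsd7a (0.984) and Cited4 (0.979). Nearest to Alox5 were Cdh1 (0.955), Dipk1a (0.953) and Sidt2 (0.952). Alox15 had lower likeness, with Phf19 (0.939), Limd2 (0.923) and D17H6S56E-5 (0.921). The 12 arrays form 4 groups, so genes that share a curdlan or genotype step score high without sharing anything within groups.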

How the data were processed

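RNA of 12 samples was read on 1 array each. The authors deposited log2 values per probe set, made with RMA per the submitters' processing notes. Not given in the sources used here are the software version and which arrays entered 1 normalisation. RMA equalises array distributions, so differences are relative to the other genes, and dim differences are compressed.

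Probe sets with exactly 1 annotated symbol were kept (21640 of 34760; 1321 had several, 11799 were not named). For 954 genes with several, the one with the highest mean was used. A model with 4 group means and 8 residual degrees of freedom was fitted to 19937 genes with limma 3.58.1 in R 4.3.3, after tests on simulated data. It gave 5 contrasts, two-sided, with p-values adjusted by Benjamini-Hochberg. For arrays, their number limits the precision.

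The named genes are the members, for each pathway list up to 4 called genes with the largest change in each curdlan comparison and every gene called between genotypes, and 3 neighbours per member by correlation. Pla2g4a, single markers and the genes called only with the culture block were named after their values were seen. Members and lists were chosen with earlier results of these data known. The pairing by number rests on the correlations given in the report. Same-numbered arrays of different genotypes correlated at 0.11 to 0.25 untreated and at -0.13 to 0.33 with curdlan, so the numbers did not pair the treated genotypes. Alternatives were 28: the replicate blocks, normalisation, dim-gene filter, probe-set rule, variance settings, arrays fitted, array weights, and each array or culture left out. Ptgs1 was not analysed here.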

Additional observations from a re-analysis of the deposited data

How the results depend on the processing

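The 9 called results of the enzymes kept their direction under every alternative that could be run for them, and 6 of the 9 also kept the call. Counts of called genes mostly stayed within 1.5 times for the curdlan comparisons and the interaction. For the genotype comparisons they often moved further, and the exceptions follow. For untreated knockout against wild type (283 genes), the replicate block by number gave 699, fitting only the arrays compared gave 70 and array weights gave 615. The enzymes called there went from 1 to 0 with only the arrays compared, and to 0 with dim genes left out, because that filter removes Alox15. For the curdlan-treated genotypes (124 genes), the replicate block gave 450, only the arrays compared 15, leaving out dim genes 197 and array weights 1402. The enzymes called there went from 0 to 1 with the block, without dim genes, after median centring and with trended variances, and to 2 with array weights. Leaving out 1 array or culture gave 1841 to 4011 genes for curdlan in wild-type cells, 1079 to 5284 in knockout cells, 9 to 608 for the untreated genotypes, 18 to 299 for the treated genotypes and 0 to 3 for the interaction. The enzymes called then numbered 3 to 4 for curdlan in each genotype, 0 to 1 for each genotype comparison and 0 for the interaction. Except for the filter, the cause was not tested. For the treated genotypes the numbers did not pair the samples, so the replicate block there has no basis in the design. In the report blocked values stand beside Alox5, Alox5ap and Ltc4s, beside Alox15 between untreated genotypes, and beside the wider-list genes named with the culture block. Beyond Alox5, Alox5ap and Ltc4s, the blocks changed no call of the enzymes except Ptges between treated genotypes (adjusted p = 0.0293, limma). Signal near or below the median gene mean limits Alox15, Cysltr2, Pla2g4c, Ptger2, Ptgds and most marker lists.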
